A study of Homo sapiens with 12 samples.

Results

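Aminoacyl-tRNA synthetases attach amino acids to their transfer RNAs, and the mRNAs of this enzyme family were followed in K562 cells given alpha-ketobutyrate, pyruvate or neither. The genes were taken from a list of 38 symbols matched by Ensembl identifier to the count table, and 37 of them had a row among the 17786 of the table. Of these, 22 act in the cytosol (19 synthetase genes and the scaffold proteins AIMP1, AIMP2 and EEF1E1) and 15 in mitochondria. VARS2, the mitochondrial valyl-tRNA synthetase, is not analysed here. All 37 genes passed the filter on low counts and were tested. VARS1, the cytosolic valyl-tRNA synthetase, was listed at 0 in 1 library of every group and is given by its counts without a fold change, which leaves 36 genes with one.

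K562 is an established line from a chronic myelogenous leukaemia, grown here in RPMI-1640 medium with serum and glutamine. Messenger RNA was sequenced from 12 libraries in 3 groups of 4. The first group received 2 mM alpha-ketobutyrate (AKB) for 24 h, the second 2 mM pyruvate for 24 h, and the third, the untreated control, neither. Both compounds are 2-oxo acids that cells can reduce with NADH, and the series describes them as electron acceptors. All libraries come from a single cell line. Whether the 4 libraries of a group were separate cultures is not stated in the labels; if they were not, the p-values here reflect technical spread alone.

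Each amino acid needs its own synthetase, and protein synthesis runs in both the cytosol and the mitochondrial matrix. Most amino acids have a pair of nuclear genes, one for each compartment, while GARS1 and KARS1 supply glycyl- and lysyl-tRNA synthetase to both. Several cytosolic synthetases sit in a multi-synthetase complex held together by AIMP1, AIMP2 and EEF1E1. Uncharged transfer RNA activates the kinase GCN2, which phosphorylates eIF2 and raises translation of ATF4. This transcription factor binds CEBP-ATF response elements and induces amino acid synthesis enzymes, amino acid transporters and many cytosolic synthetases.

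The core of the CEBP-ATF element, TGATGNAA, was searched on both strands of the RefSeq promoter windows of GRCh38.p14, which run from 250 bases before to 50 bases after each start. At least 1 window was found for 33 members. The 8 members with a match are shown because 4 of the 6 genes called lower with AKB, described further on, are among them. Each line gives 30 bases in the direction of transcription, with the match in capitals; TTGCATCA and TTTCATCA are the element read on the other strand.
CARS1: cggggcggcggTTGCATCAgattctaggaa
MARS1: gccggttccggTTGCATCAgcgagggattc
GARS1: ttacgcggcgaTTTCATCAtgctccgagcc
TARS1: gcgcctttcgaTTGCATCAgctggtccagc
IARS1: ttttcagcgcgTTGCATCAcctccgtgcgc
AARS1: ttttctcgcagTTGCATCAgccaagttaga
NARS1: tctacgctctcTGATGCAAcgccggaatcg
YARS2: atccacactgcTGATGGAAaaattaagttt

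These windows lie at chr11:3057407-3057436 on the minus strand for CARS1, chr12:57488053-57488082 on the plus strand for MARS1, chr7:30594834-30594863 on the plus strand for GARS1 and chr5:33440956-33440985 on the plus strand for TARS1. Those of IARS1, AARS1, NARS1 and YARS2 are on the minus strand at chr9:92293692-92293721, chr16:70289675-70289704, chr18:57621804-57621833 and chr12:32756076-32756105. In CARS1, MARS1, IARS1 and TARS1 the match begins within 13 bases of the annotated start, at positions −2, −4, −13 and 3, with 1 as the first transcribed base. It begins at position −33 in GARS1, for the downstream of its 2 starts, at −187 in AARS1, at 15 in NARS1 and at −197 in YARS2. Of the genes with a window, 7 of 19 cytosolic members (36.8%), 1 of 14 mitochondrial members (7.14%) and 4.46% of 27305 genes held TGATGNAA. Its narrower form TGATGCAA, which is contained in the first, was found in 6 cytosolic members (31.6%), 0 mitochondrial members and 1.08% of all genes. WARS1 had 2 windows and no match, and AARS2, LARS1, VARS1 and YARS1 had no entry in the table. A match is a stretch of letters and not evidence of binding.

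Estimated counts summed to between 15353200 and 21301073 per library. The 9 K562 markers examined were expressed in every library, with HBG2 at 3808 to 5844 CPM (counts scaled to library size). Of the other blood cell markers with a row, the T cell gene CD3E, the B cell gene CD79A and the monocyte gene CD14 were at or near 0, the highest being 0.836 CPM, while LYZ stood at 28.1 to 51.8 CPM. Some of these markers moved with the groups. LYZ averaged 47.2 ± 4.97 CPM with AKB, 30.9 ± 3.76 CPM with pyruvate and 33.5 ± 2.86 CPM in untreated cells (SD, n = 4 each), and was higher with AKB than in untreated cells by 0.50 on the log2 scale (edgeR adjusted p 0.0308). The embryonic globin gene HBE1 was also higher with AKB (log2 0.42, edgeR adjusted p 0.00146). The fetal globin genes HBG2 and HBG1 were lower with pyruvate (log2 −0.34 and −0.31, edgeR adjusted p 0.0206 and 0.0489), calls that were lost without pyruvate replicates 3 and 4 (edgeR adjusted p 0.0846 and 0.204). The part of these markers in the changes of the synthetases was not tested. Pyruvate replicates 3 and 4 stood apart along the GC content of transcripts. Set beside the mean library, their log2 CPM climbed with GC, by 0.328 and 0.348 for every 10 percentage points, where the slopes of the other 10 libraries lay between −0.155 and 0.0179. They were also the deepest, with 19891231 and 21301073 counts. The counts of genes called are therefore also given without them, and with an offset that levels the GC trend in each library.

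In untreated cells the cytosolic synthetases were far more abundant than the mitochondrial ones. Per kilobase of the longest annotated transcript, the median level was 93.5 CPM over 21 cytosolic genes and 13.1 CPM over 15 mitochondrial genes. GARS1 was the highest at 153.1 ± 4.89 CPM per kilobase, followed by IARS1, the isoleucine enzyme, at 140.3 ± 5.63 and EPRS1, the fused glutamate and proline enzyme, at 125.7 ± 4.48 (SD, n = 4 untreated libraries). The lowest cytosolic level belonged to CARS1, the cysteine enzyme, at 16.4 ± 1.04 CPM per kilobase. IARS2, the mitochondrial isoleucine enzyme, was the only mitochondrial gene among the top 15, at 85.5 ± 2.89 CPM per kilobase. FARS2 and PARS2, which charge phenylalanine and proline in mitochondria, closed the order at 4.89 ± 0.195 and 5.93 ± 0.145 CPM per kilobase. Of 35 neighbours in the order, 24 had overlapping library ranges, so much of the fine order was within the spread. GARS1 and IARS1 at the top and PARS2 and FARS2 at the bottom overlapped no other gene. EPRS1 overlapped SARS1, the next in the order, and CARS2 overlapped MARS2, the gene before it. With the median transcript length the medians were 318.6 and 36.8 CPM per kilobase, CARS1 ranked 22 and IARS2 ranked 9, so the difference between compartments did not hang on that choice, whereas the place of single genes did.

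**Figure D1:**
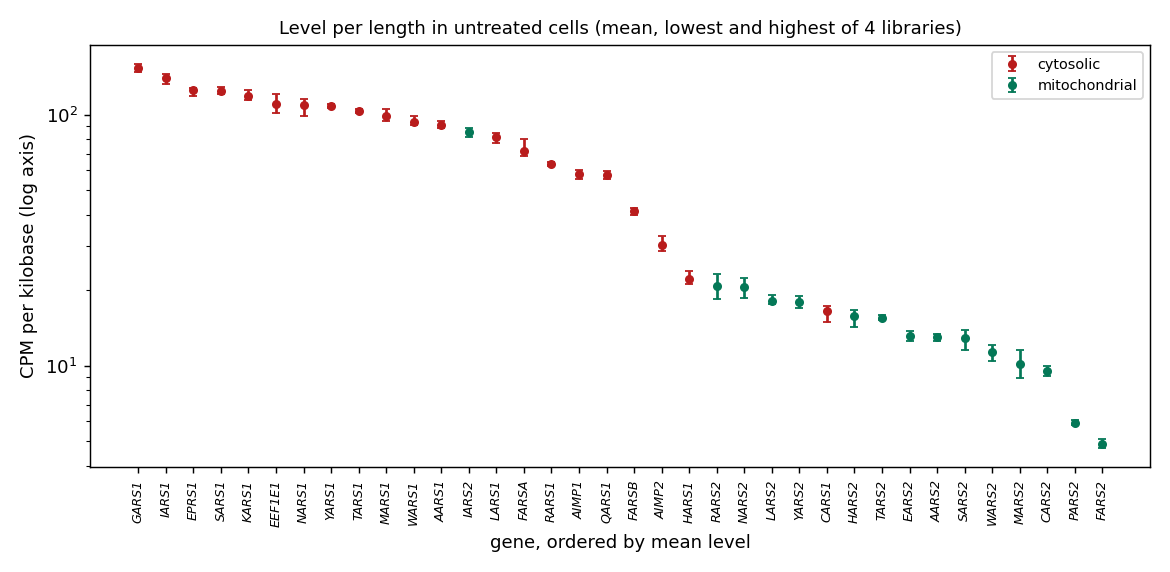
Level of 36 synthetase genes in untreated cells, in CPM per kilobase of the longest transcript on a log axis, ordered from high to low. Points are means of 4 libraries, bars run from the lowest to the highest library, and colours mark the compartment. All but 1 of the 15 highest genes are cytosolic, from GARS1 at 153.1 downwards, and FARS2 is lowest at 4.89.

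With AKB the mRNAs of 6 cytosolic synthetases were lower, and none of the 15 mitochondrial ones passed the test. CARS1, WARS1, MARS1, YARS1, GARS1 and TARS1, which charge cysteine, tryptophan, methionine, tyrosine, glycine and threonine, were between 1.21-fold and 1.54-fold lower than in untreated cells at an adjusted p below 0.05 (edgeR's quasi-likelihood test, Benjamini-Hochberg over 13598 genes). No member was higher. Of all genes tested, 0.603% were called lower and 1.37% higher. The median log2 fold change was −0.19 over 21 cytosolic genes, −0.06 over 15 mitochondrial genes and 0.0061 over all genes tested, and 17 of the 21 and 12 of the 15 estimates were below 0.

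CARS1 had the largest decrease. Its level was 58.7, 62.0, 63.1 and 60.6 CPM in AKB libraries 1 to 4, against 99.1, 94.1, 98.1 and 86.0 CPM in untreated libraries 1 to 4. The 4 AKB libraries lay close together and far below the lowest untreated library. The log2 fold change was −0.63 with a standard error of 0.07 (edgeR adjusted p 0.000914). CARS1 lies at chr11:3000922-3057613 on the minus strand in GENCODE 29 (GRCh38), the annotation used for all gene positions here.

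WARS1, the tryptophan enzyme, showed 193.2, 197.6, 217.3 and 198.8 CPM in AKB libraries and 286.4, 283.7, 280.7 and 305.6 CPM in untreated libraries. The groups were wide apart and each was narrow. The log2 fold change was −0.52 ± 0.05 (SE; edgeR adjusted p 0.000914), or 1.43-fold lower. The gene is on chromosome 14, from 100333788 to 100376805.

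MARS1, the methionine enzyme of the multi-synthetase complex, stood at 260.3, 272.8, 247.3 and 254.1 CPM with AKB, against 380.5, 340.1, 349.1 and 352.3 CPM in untreated cells. Its highest AKB library was well under its lowest untreated library. The log2 fold change was −0.46 ± 0.06 (SE; edgeR adjusted p 0.0029). MARS1 lies at 57475445 to 57517569 on chromosome 12, where 355 of its 7028 exonic bases (5.05%) are shared with DDIT3 on the opposite strand. The sources used here do not state whether counting used strand, so reads of that stretch cannot be assigned. DDIT3 averaged 18.9 ± 2.16 CPM with AKB and 23.9 ± 0.797 CPM in untreated cells (SD, n = 4 each).

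YARS1, the tyrosine enzyme, had 273.9, 262.1, 264.2 and 273.0 CPM in AKB libraries and 354.9, 343.3, 357.7 and 353.0 CPM in untreated libraries, again with no overlap. Its log2 fold change was −0.39 ± 0.06 (SE; edgeR adjusted p 0.00917). GARS1, the glycine enzyme, had 291.5, 311.9, 321.6 and 318.5 CPM with AKB and 405.4, 396.6, 390.9 and 420.5 CPM in untreated cells. TARS1, the threonine enzyme, had 350.9, 361.2, 395.2 and 374.9 CPM with AKB and 447.5, 439.0, 450.1 and 455.9 CPM in untreated cells. Neither gene's groups overlapped. The log2 fold changes were −0.38 ± 0.08 for GARS1 and −0.27 ± 0.06 for TARS1 (SE; edgeR adjusted p 0.0328 and 0.0308). YARS1 lies at chr1:32775237-32818153 on the minus strand, GARS1 at chr7:30594681-30634033 and TARS1 at chr5:33440696-33469539, both on the plus strand. The calls of GARS1 and TARS1 were not tied to 1 particular library, but most fits with 1 AKB or untreated library fewer lost them. Leaving out any 1 of the untreated or AKB libraries ended the call of GARS1, and ended that of TARS1 except without AKB replicate 3, so that 4 or 5 calls remained.

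**Figure D2:**
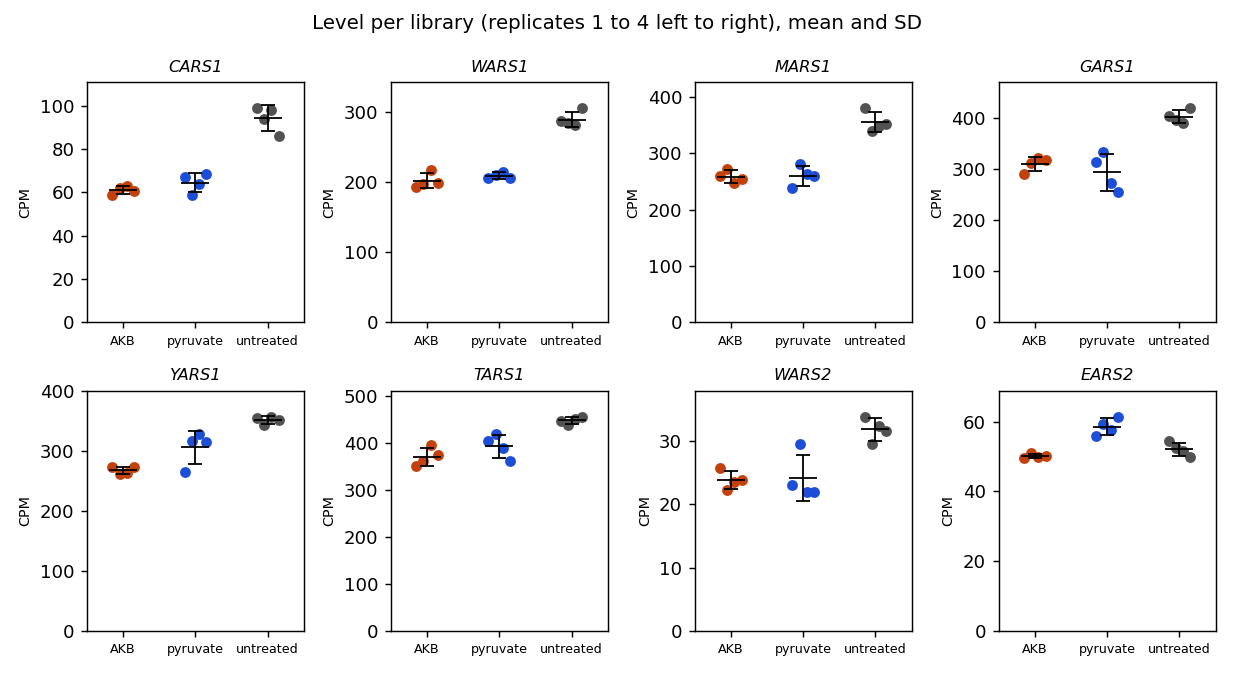
CPM of 8 synthetase genes in each library, with AKB, pyruvate and untreated groups from left to right and replicates 1 to 4 within each group; the black bars give mean and SD, and each axis starts at 0. For CARS1, WARS1, MARS1, GARS1, YARS1 and TARS1 every AKB library is below every untreated one, while EARS2 is highest in the pyruvate libraries.

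The remaining cytosolic members lay mostly lower without passing the test. The AKB and untreated libraries did not overlap, with AKB lower, for 14 of 22 cytosolic members and 3 of 15 mitochondrial members, against 8.41% of all genes tested; none had AKB higher without overlap, against 8.74%. Among the complex synthetases, 1 of 7 was called (MARS1), among the scaffold proteins 0 of 3, and among the cytosolic synthetases outside the complex 5 of 12. By catalytic class, 4 of 9 cytosolic class I and 2 of 9 cytosolic class II enzymes were called. The share called lower among all genes was 0.603%. Without pyruvate replicates 3 and 4, 3 complex synthetases, 2 scaffold proteins and 9 cytosolic synthetases outside the complex were called. By class, 5 of class I and 6 of class II were called, against 4.31% of all genes lower. With the GC offset the calls were 2, 1 and 8, and 4 of class I and 5 of class II, against 3.82%. EPRS1 had 523.4, 509.1, 521.9 and 518.9 CPM in AKB libraries and 640.2, 642.0, 642.0 and 596.5 CPM in untreated libraries, with a log2 estimate of −0.28 ± 0.10 (SE; edgeR adjusted p 0.206). NARS1, the asparagine enzyme, had 298.1, 269.0, 287.6 and 271.3 CPM in AKB libraries and 357.6, 338.8, 352.8 and 306.8 CPM in untreated libraries, with −0.27 ± 0.11 (SE; edgeR adjusted p 0.289). Both genes were lower in every AKB library than in any untreated one. AARS1 and SARS1, for alanine and serine, had −0.23 ± 0.06 and −0.19 ± 0.05 (edgeR adjusted p 0.104 for each). AIMP2 had the lowest scaffold estimate, −0.35 ± 0.10 (edgeR adjusted p 0.127), and shares 28.9% of its exonic bases with EIF2AK1 on the opposite strand. KARS1, RARS1, QARS1 and HARS1, for lysine, arginine, glutamine and histidine, had estimates of 0.0013, 0.03, 0.06 and 0.10. The other 6 cytosolic estimates lay between −0.19 for IARS1 and −0.04 for EEF1E1.

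In mitochondria WARS2, the tryptophan enzyme, came nearest to the threshold with AKB. It had 25.7, 22.3, 23.6 and 23.8 CPM in AKB libraries and 33.8, 29.5, 32.4 and 31.6 CPM in untreated libraries, which did not overlap. The log2 fold change was −0.42 ± 0.10 (SE; edgeR adjusted p 0.0552), similar in size to those of YARS1 and MARS1. PARS2 was next at −0.28 ± 0.10 (edgeR adjusted p 0.206), with 11.1 to 12.1 CPM in AKB libraries and 13.6 to 14.3 CPM in untreated libraries. The other 13 mitochondrial genes had estimates between −0.19 for NARS2 and 0.09 for CARS2.

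Summed over the 21 cytosolic genes, the level was 4908, 4856, 4942 and 4947 CPM in AKB libraries and 5868, 5698, 5777 and 5709 CPM in untreated libraries, so that the AKB mean of 4913 ± 41.9 CPM was 85.2% of the untreated mean of 5763 ± 78.2 CPM (SD, n = 4 each). The sum over the 15 mitochondrial genes was 833.2 ± 14.7 CPM with AKB and 858.2 ± 20.3 CPM in untreated cells, or 97.1%. The cytosolic sums were separate and the mitochondrial ones overlapped. CPM are shares of a library, and in bulk RNA a change in the number of cells of a kind cannot be told apart from a change in RNA per cell.

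The number of calls with AKB differed between fits. Without pyruvate replicates 3 and 4, 14 cytosolic and 2 mitochondrial genes (WARS2 and PARS2) were lower and 0 higher, against 4.31% and 4.86% of all genes. With the GC offset 11 cytosolic and the same 2 mitochondrial genes were lower and 0 higher, against 3.82% and 4.62% of all genes. All 6 genes named above were called under both.

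**Figure D3:**
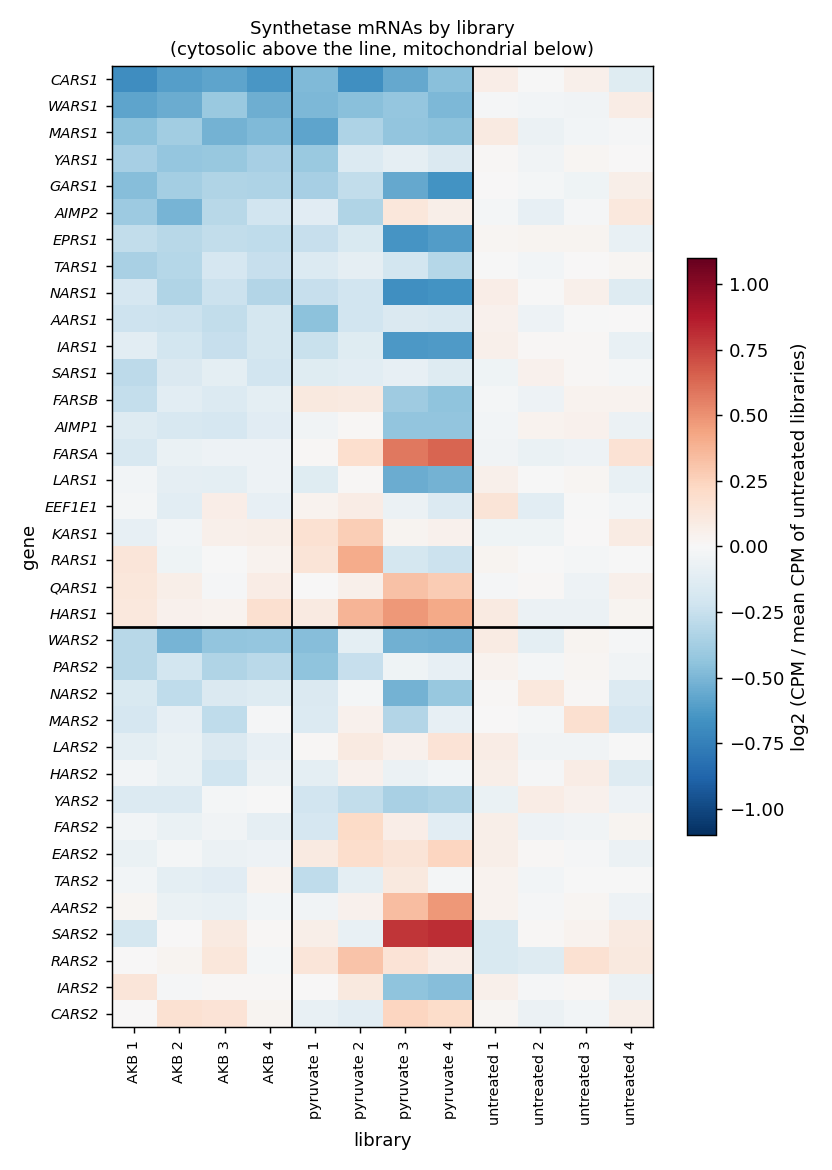
log2 of each library's CPM over the mean of the untreated libraries for 36 synthetase genes, with cytosolic genes above the line and mitochondrial genes below it, each sorted by the change with AKB. Columns are AKB, pyruvate and untreated replicates 1 to 4. CARS1 and WARS1 head the cytosolic block and are low in all 8 treated libraries; pyruvate 3 and 4 differ from pyruvate 1 and 2 in many rows, up to 0.81 for SARS2.

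With pyruvate 4 cytosolic synthetases, CARS1, WARS1, MARS1 and GARS1, were lower, and no other member passed edgeR's quasi-likelihood test in either direction. The 4 were 1.46-fold, 1.38-fold, 1.36-fold and 1.37-fold lower than in untreated cells. Of all genes tested, 0.927% were called lower and 1.02% higher. The median log2 fold change was −0.20 over 21 cytosolic genes, −0.04 over 15 mitochondrial genes and −0.0082 over all genes tested. The cytosolic median was −0.12 with the GC offset and −0.13 without pyruvate replicates 3 and 4, where that of AKB was −0.21 and −0.19. The same 4 untreated libraries served both treatments, so the 2 sets of fold changes are not independent.

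CARS1 had 67.3, 58.9, 63.7 and 68.5 CPM in pyruvate libraries 1 to 4, against the untreated values of 86.0 to 99.1 CPM given above. Its log2 fold change was −0.55 ± 0.07 (SE; edgeR adjusted p 0.00284). WARS1 had 205.5, 210.5, 214.9 and 205.7 CPM in pyruvate libraries, against 280.7 to 305.6 CPM in untreated libraries. Its log2 fold change was −0.47 ± 0.05 (SE; edgeR adjusted p 0.00168). All pyruvate libraries of both genes, replicates 3 and 4 included, were below every untreated library.

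MARS1 had 237.8, 280.9, 263.1 and 259.9 CPM in pyruvate libraries, against 340.1 to 380.5 CPM in untreated libraries, a log2 fold change of −0.45 ± 0.06 (SE; edgeR adjusted p 0.00494). GARS1 had 313.7, 335.0, 273.8 and 255.1 CPM in pyruvate libraries, against 390.9 to 420.5 CPM in untreated libraries. Replicates 3 and 4 were the lowest for GARS1, and replicates 1 and 2 were still below all untreated libraries. Its log2 fold change was −0.45 ± 0.08 (SE; edgeR adjusted p 0.0206) over all libraries and −0.31 without pyruvate replicates 3 and 4, where its adjusted p was 0.0196. The call of GARS1 was lost without untreated replicate 1, 2 or 3 and without pyruvate replicate 3.

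Several members lay just beyond the threshold with pyruvate. EPRS1, NARS1, WARS2 and YARS2, the last being the mitochondrial tyrosine enzyme, had log2 estimates of −0.40, −0.43, −0.40 and −0.29 (edgeR adjusted p 0.0517, 0.0553, 0.0565 and 0.0509). Leaving out pyruvate replicates 3 and 4, these were −0.21, −0.23, −0.28 and −0.24 (edgeR adjusted p 0.0588, 0.143, 0.252 and 0.164), whereas with the GC offset all 4 passed. EPRS1 averaged 476.0 ± 81.3 CPM in pyruvate libraries and 630.2 ± 22.5 CPM in untreated libraries (SD, n = 4 each), with pyruvate replicates 3 and 4 lowest at 401.4 and 412.0 CPM and all pyruvate libraries below all untreated ones. YARS2 had 33.0, 31.7, 29.9 and 30.4 CPM in pyruvate libraries and 36.2, 40.3, 39.4 and 36.7 CPM in untreated libraries, with no overlap. HARS1 had the opposite sign, with 83.3, 100.6, 108.0 and 104.0 CPM in pyruvate libraries and 83.2, 74.3, 74.3 and 79.3 CPM in untreated libraries. Its lowest pyruvate library exceeded its highest untreated library only narrowly. Its log2 estimate was 0.35 ± 0.08 (SE; edgeR adjusted p 0.0509), or 0.24 without pyruvate replicates 3 and 4 (edgeR adjusted p 0.192), and 437 of its exonic bases are shared with HARS2 on the opposite strand. YARS1 and TARS1, both called with AKB, had log2 estimates of −0.20 and −0.19 with pyruvate (edgeR adjusted p 0.0915 and 0.0849), and their pyruvate libraries also lay below all untreated ones.

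Pyruvate and untreated libraries did not overlap, with pyruvate lower, for 11 of 22 cytosolic and 2 of 15 mitochondrial members, against 6% of all genes. With pyruvate higher this held for 1 cytosolic and 1 mitochondrial member, HARS1 and EARS2, against 4.89%. The cytosolic sum was 4980, 5377, 4655 and 4589 CPM in pyruvate libraries, a mean of 4900 ± 360.9 CPM or 85.0% of the untreated mean of 5763 ± 78.2 CPM (SD, n = 4 each). The mitochondrial sum was 828.2 ± 45.4 CPM with pyruvate and 858.2 ± 20.3 CPM in untreated cells. All 4 cytosolic sums of the pyruvate group were below every untreated one, though they differed among themselves far more than the AKB sums did.

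**Figure D4:**
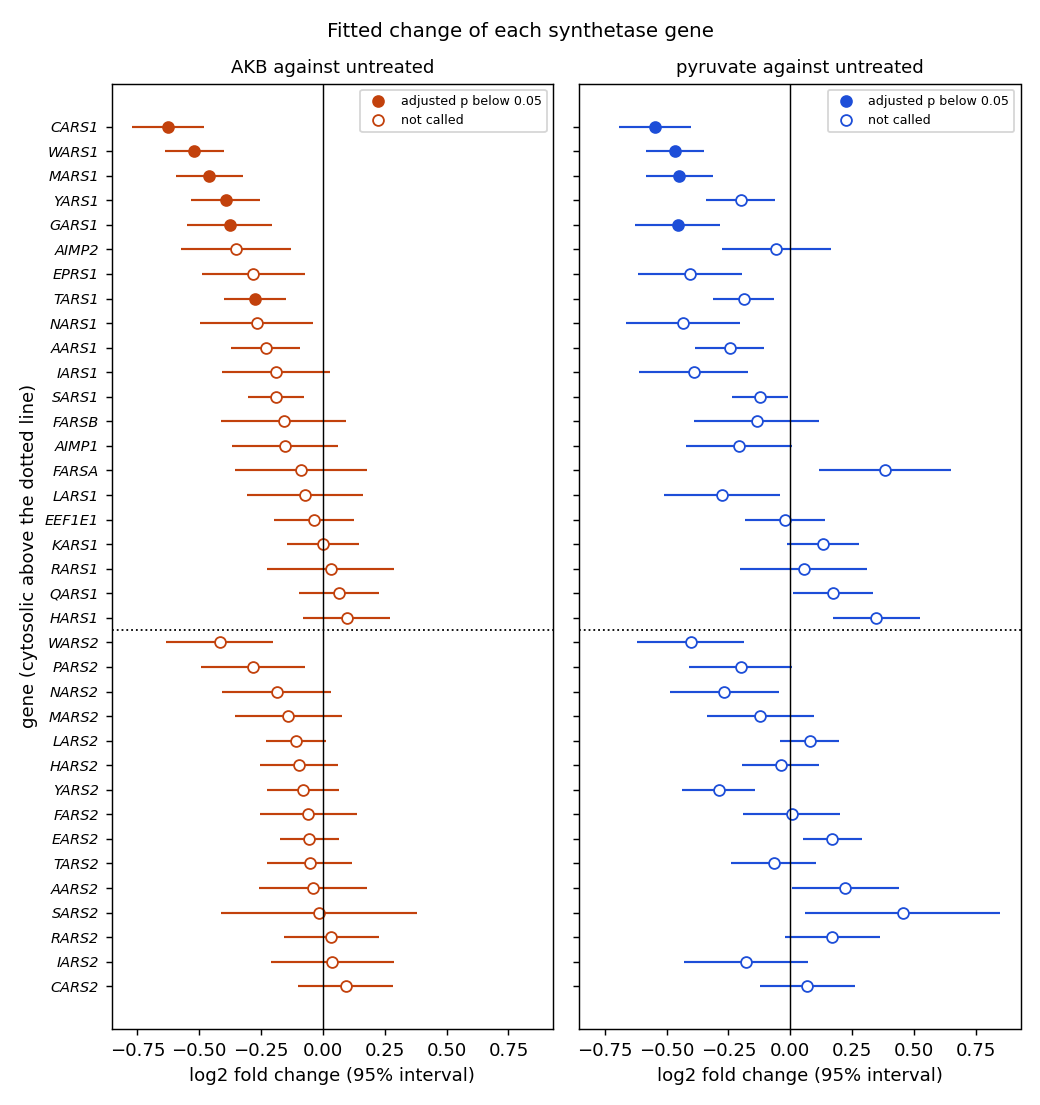
Fitted log2 fold change of 36 synthetase genes with its 95% interval, for AKB against untreated on the left and pyruvate against untreated on the right, with cytosolic genes above the dotted line. Filled points have an adjusted p below 0.05 (edgeR's quasi-likelihood test). The 6 filled points with AKB and the 4 with pyruvate are all cytosolic and all below 0; the intervals of many open points also lie below 0.

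The spread within the pyruvate group followed the GC content of the genes. Across the 36 genes, the log2 ratio of pyruvate replicates 3 and 4 over replicates 1 and 2 had a Pearson r of 0.865 and a Spearman rho of 0.868 with transcript GC content. This is a description across genes that share the same libraries. SARS2, FARSA and AARS2, with 61.2%, 60.3% and 59.3% GC, had ratios of 0.81, 0.51 and 0.41, whereas FARSB, IARS2, RARS1 and LARS1, with 41.4% to 43.8% GC, had ratios of −0.51, −0.51, −0.49 and −0.47. The subunits of the cytosolic phenylalanine enzyme thus went opposite ways within 1 group: FARSA had 149.2, 168.1, 221.7 and 231.2 CPM in the pyruvate libraries and FARSB had 150.0, 149.3, 106.6 and 103.0 CPM. CARS1, WARS1 and MARS1, at 51.8% to 53.8% GC, had ratios of 0.07, 0.02 and 0.01.

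Without pyruvate replicates 3 and 4, 5 cytosolic members were lower with pyruvate, the 4 named and AARS1, with 0 mitochondrial members and none higher, against 0.56% lower and 0.151% higher among all genes. With the GC offset 10 cytosolic and 4 mitochondrial members were lower and 4 members higher, against 4.09% and 5.4% of all genes. The 4 that were higher with the offset were HARS1, KARS1, RARS1 and RARS2. The total of 4 calls became 17 without pyruvate replicate 1 and 18 without pyruvate replicate 2, where replicates 3 and 4 make up 2 of the 3 pyruvate libraries left. Fitted on the 8 libraries of this comparison alone, WARS1 was the only call. Shares of all genes are not given for the fits without replicate 1 or 2 and on 8 libraries. Their totals therefore cannot be read as a result about the synthetases.

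**Figure D5:**
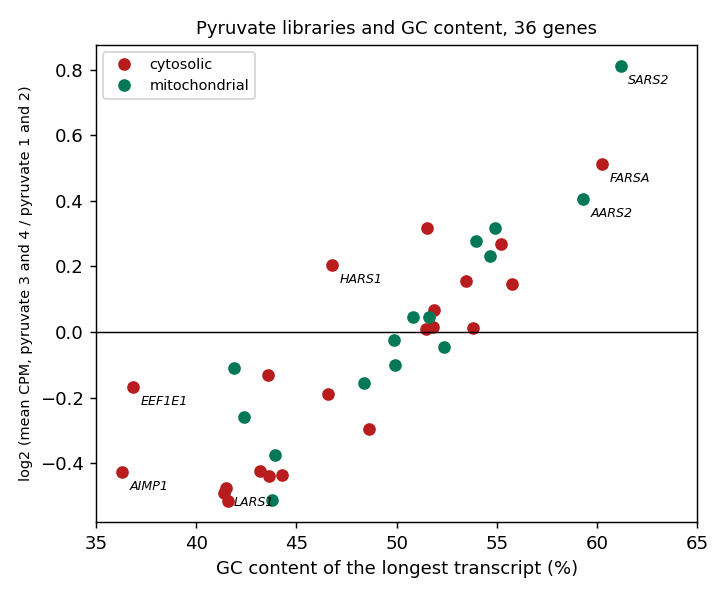
log2 ratio of mean CPM in pyruvate replicates 3 and 4 over replicates 1 and 2, against the GC content of the longest transcript in percent, for 36 synthetase genes coloured by compartment. The points climb with GC content, with FARSB at −0.51 and SARS2 at 0.81 as the extremes.

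Set directly against pyruvate, AKB differed in 1 member. EARS2, the mitochondrial glutamate enzyme, had 49.6, 51.1, 49.8 and 50.0 CPM in AKB libraries and 55.9, 59.4, 57.5 and 61.4 CPM in pyruvate libraries, with no overlap. The log2 fold change was −0.22 ± 0.06 (SE; edgeR adjusted p 0.049), and 1.19% of all genes were called lower and 1.94% higher. Untreated libraries held 54.3, 52.4, 51.6 and 49.9 CPM, which overlapped the AKB libraries. The call was at the edge of the threshold. It was lost without each of the untreated and AKB libraries, without pyruvate replicate 3 or 4, and without both of these, where the adjusted p was 0.0536. Without pyruvate replicate 1 or 2, 6 or 7 members were called, counts that have no share of all genes beside them.

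The other members were within the error of the comparison or beyond the threshold. The 95% intervals of AKB over pyruvate on the log2 scale ran from −0.23 to 0.07 for CARS1, from −0.17 to 0.07 for WARS1, from −0.15 to 0.13 for MARS1 and from −0.09 to 0.25 for GARS1. YARS1 had an estimate of −0.19 with an interval of −0.33 to −0.05 (edgeR adjusted p 0.102), and TARS1 one of −0.09 with an interval of −0.21 to 0.04. FARSA, at −0.47 ± 0.12 (SE; edgeR adjusted p 0.0581), LARS2 and EARS2 were lower in all AKB libraries than in all pyruvate libraries, or 1 of 22 cytosolic and 2 of 15 mitochondrial members, against 4.54% of all genes. YARS2 was higher in all of them, 1 of 15 mitochondrial members, against 7.08% of all genes. The estimate of FARSA was −0.19 without pyruvate replicates 3 and 4 (edgeR adjusted p 0.165) and −0.31 with the GC offset (edgeR adjusted p 0.00412). Without pyruvate replicates 3 and 4 the only call was FARSB, at −0.26 (edgeR adjusted p 0.0214), against 1.84% of all genes lower and 2.52% higher. With the GC offset 8 members were lower and 1, YARS2, higher, against 7.41% and 7.16% of all genes.

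Amino acids served by a gene in each compartment allowed the compartments to be compared within each library. For 12 such pairs the log2 ratio of cytosolic to mitochondrial CPM was set side by side between groups with an exact permutation test (two-sided), in 36 tests over the 3 comparisons. The smallest p that 4 against 4 libraries allow is 0.0286. With AKB the ratio was lower than in untreated cells without overlap in 6 pairs, those for alanine, cysteine, isoleucine, methionine, threonine and tyrosine, and higher in none. Each had an exact permutation p of 0.0286 and an adjusted p of 0.0735 over the 36 tests, so 0 of 12 passed the correction. As 0.0286 is the smallest p possible, no pair could have passed on its own values, however large its difference. The cytosolic genes of these 6 pairs were themselves lower without overlap, as were 8.41% of all genes. Ratios of other gene pairs were not examined, so the counts of separate ratios in the 3 comparisons have no background. The largest difference was that of CARS1 over CARS2, with a mean log2 ratio of 0.78 ± 0.04 with AKB and 1.49 ± 0.13 in untreated cells (SD, n = 4 each), a difference of −0.71.

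For tryptophan both members of the pair had low estimates. The log2 ratio of WARS1 over WARS2 averaged 3.08 ± 0.13 with AKB and 3.18 ± 0.10 in untreated cells (SD, n = 4 each), a difference of −0.10 with an exact permutation p of 0.257. With pyruvate it averaged 3.13 ± 0.20, a difference of −0.06 from untreated cells (exact permutation p 0.8). The leucine, arginine and histidine ratios also overlapped between AKB and untreated libraries, with differences of 0.03, −0.0099 and 0.19.

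With pyruvate the ratio was lower without overlap for alanine, cysteine, isoleucine and leucine and higher for histidine, again with an exact permutation p of 0.0286 and an adjusted p of 0.0735. The median difference over the 12 pairs was −0.18 for AKB and −0.19 for pyruvate, both against untreated cells, and 10 of 12 differences were below 0 in each. AKB set against pyruvate had a median difference of −0.0071. There the tyrosine ratio was lower and the alanine and leucine ratios were higher without overlap, none with an adjusted p below 0.05. Transcript GC content is 53.5% for AARS1 and 59.3% for AARS2, and 41.5% for LARS1 and 50.8% for LARS2; these ratios were not computed with the GC offset. Without pyruvate replicates 3 and 4 the median difference was −0.13 for pyruvate against untreated cells, with 9 of 12 below 0, and −0.02 for AKB against pyruvate, values given without a test. There the alanine, cysteine, isoleucine, leucine and methionine ratios were lower and the histidine ratio higher in both pyruvate libraries left than in all untreated ones.

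The mRNA of ATF4, the transcription factor described above, was also lower. Its protein was not measured here, and its part in the changes of the synthetases was not tested. ATF4 averaged 241.2 ± 4.03 CPM with AKB, 259.3 ± 24.2 CPM with pyruvate and 341.2 ± 11.3 CPM in untreated cells (SD, n = 4 each). Its log2 fold change was −0.50 for AKB and −0.40 for pyruvate (edgeR adjusted p 0.0023 and 0.0174), and it was called in both comparisons with the GC offset and without pyruvate replicates 3 and 4. ASNS, asparagine synthetase, another ATF4 target, averaged 206.3 ± 2.33 CPM with AKB, 169.3 ± 26.1 CPM with pyruvate and 385.2 ± 26.9 CPM in untreated cells, a log2 fold change of −0.90 and −1.19 (edgeR adjusted p 0.000914 and 9.58e-05). Of 34 tested ATF4 targets outside the synthetase family, 18 were lower with AKB and 17 with pyruvate, and none was higher, against 0.603% and 0.927% of all genes lower. With the GC offset 29 were lower with each compound, against 3.82% of all genes with AKB and 4.09% with pyruvate. Without pyruvate replicates 3 and 4 the numbers were 25 and 20, against 4.31% and 0.56% of all genes. None of these targets was higher in either fit. In the fit of 12 libraries their median log2 fold change was −0.48 with AKB and −0.47 with pyruvate. This list was assembled with results of these data already known.

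In the rest of the charging machinery the number of calls depended on the fit. In the fit of 12 libraries, with the shares of all genes as above, of 15 accessory factors of tRNA charging tested, 0 were called with AKB and 1 was lower with pyruvate, SEPSECS, which makes selenocysteinyl-tRNA, at −0.66 ± 0.12 (SE; edgeR adjusted p 0.0206). Of 15 cytosolic elongation and termination factors, EEF1A2, a form of the factor that brings charged tRNA to the ribosome, was higher with AKB at 0.96 ± 0.16 (SE; edgeR adjusted p 0.00946), with 29.5 ± 2.81 CPM with AKB and 15.2 ± 1.62 CPM in untreated cells (SD, n = 4 each). EEF1A2 was also called without pyruvate replicates 3 and 4. None of the 15 was called with pyruvate. Of 14 mitochondrial translation factors and 24 genes of tRNA transcription, 0 were called against untreated cells with either compound. Of 42 tRNA processing and modification genes, 0 were called with AKB and 1, HSD17B10, a subunit of mitochondrial RNase P, was higher with pyruvate at 0.61 ± 0.12 (SE; edgeR adjusted p 0.0345), a call lost without pyruvate replicates 3 and 4 (edgeR adjusted p 0.145). The last list, the eIF2 list, held 14 genes tied to the sensing of uncharged tRNA, to eIF2 or, for ATF4, to the response downstream. ATF4 was its only call with either compound, and the lower calls of this list in the other fits against untreated cells include ATF4.

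The other fits called more of these genes with AKB. With the GC offset, 3 accessory factors, 3 elongation and termination factors, 1 mitochondrial translation factor, 1 gene of tRNA transcription, 7 of tRNA processing and 3 of the eIF2 list were lower, against 3.82% of all genes. The numbers without pyruvate replicates 3 and 4 were 4, 4, 2, 3, 7 and 4, against 4.31% of all genes. EIF2S1 and EIF2S2, the alpha and beta subunits of eIF2, were among them with the GC offset (edgeR adjusted p 0.0226 and 0.0328) and without these libraries (edgeR adjusted p 0.0163 and 0.00728). Without them EIF2B3, a subunit of the exchange factor eIF2B, was also lower and EIF2AK4, the kinase GCN2, higher (edgeR adjusted p 0.0339 and 0.0446). With pyruvate the GC offset gave 2, 1, 0, 0, 2 and 3 lower calls in the same 6 lists and 3, 1, 1, 2, 3 and 0 higher ones, against 4.09% and 5.4% of all genes. Without pyruvate replicates 3 and 4 there were 1, 1, 0, 0, 0 and 1 lower calls and none higher. Of all genes, 0.56% were lower and 0.151% higher in that fit.

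AKB set against pyruvate gave lower calls for EIF5A, GTF3C6, TRMT61A and HSD17B10 and higher ones for ALDH1L2 and CTH in the fit of 12 libraries, against 1.19% and 1.94% of all genes. GTF3C6 and ALDH1L2 were still called without pyruvate replicates 3 and 4 (edgeR adjusted p 0.0241 and 0.0348). The others were not, with an edgeR adjusted p of 0.0651 for EIF5A, 0.0512 for TRMT61A, 0.129 for HSD17B10 and 0.094 for CTH.

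VARS1 could not be given a fold change. Its estimated counts were 0, 391, 1343 and 482 in AKB libraries, 1800, 0, 8058 and 9312 in pyruvate libraries and 0, 744, 1348 and 1147 in untreated libraries. Every group held 1 library listed at 0 beside others with 391 to 9312 counts, and the groups overlapped.

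The authors' deposited tables give fold changes in the opposite direction, with untreated cells over treated cells. In the authors' deposited table for AKB, 9 cytosolic members had an adjusted p below 0.05, all higher in untreated cells, and 0 mitochondrial ones. These 9 were AARS1, CARS1, EPRS1, GARS1, SARS1, TARS1, WARS1, YARS1 and AIMP2; MARS1 had a log2 value of 0.35 and an adjusted p of 0.063 in the authors' deposited table. For pyruvate, the authors' deposited table held 9 cytosolic members higher in untreated cells, 2 lower in them, FARSA and HARS1, and 0 mitochondrial ones; WARS1 had a log2 value of 0.22 and an adjusted p of 0.139 there. In the authors' deposited table of AKB over pyruvate, FARSA, HARS1 and LARS2 were lower with AKB and EARS2 had an adjusted p of 0.453. The shares of all genes called in the authors' deposited tables are not given here, so these counts of members have no background.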

How the data were processed

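The 12 poly(A) RNA libraries of K562 cells were grouped by the labels. The authors' estimated counts per gene were made with Salmon 1.2.1, and R 3.6.3 and DESeq2 1.26.0 were also used, per the submitters' processing notes; the sources used here name no genome build, annotation or strand setting. The counts were deposited as whole numbers, so rounding changed 0 values. The authors' 3 comparison tables hold, per the file headers, a mean normalised signal per gene (baseMean), log2 fold changes with standard errors, a Wald score, and p-values with adjusted p-values.

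Genes were kept by filterByExpr with a minimum count of 10 (13598 of 17786). After TMM scaling, edgeR 4.0.16 (R 4.3.3) fitted its quasi-likelihood test to 12 libraries with 1 term per group. Calls were made at an adjusted p below 0.05 (Benjamini-Hochberg, all genes tested). Every adjusted p without another name is from that test. Standard errors are the log2 fold change over the square root of F, and intervals are 95%. CPM use TMM-scaled sizes. Lengths and GC came from the longest GENCODE 29 transcript. The GC offset smoothed log2 CPM deviations (prior count 2) along GC with a span of 0.3. Alternatives also used DESeq2 1.42.0 and limma 3.58.1 (voom). Scripts were tested on simulated data. Ratios of cytosolic to mitochondrial CPM were tested by permutation over the 70 assignments of 8 libraries; that test, and its values without pyruvate replicates 3 and 4, were added after the data were seen.

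The members and lists were chosen with earlier results of these data known. All members were accounted for, and named where called, flagged or at an end of the order of levels; from each further list up to 4 called genes with the smallest adjusted p were named, with ATF4 and ASNS always. Other members were named after their values were seen. Depth limits precision, and counting error is part of the spread between libraries.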

Additional observations from a re-analysis of the deposited data

Results flagged for a closer look

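Each group of 4 libraries was searched for a library set far from the other 3, over 37 genes in 3 groups, or 111 cases; 5 stood out, and chance gives about 1 in 20. EPRS1 was 596.5 CPM in untreated replicate 4, against 640.2 to 642 CPM in the other untreated libraries. FARSA was 165 CPM in the same library, against 140.6 to 144 CPM, and 130.8 CPM in AKB replicate 1, against 140.9 to 142.7 CPM in the other AKB libraries. NARS2 was 42.9 CPM in AKB replicate 2, against 46.4 to 47.0 CPM in the others. WARS2 was 29.5 CPM in pyruvate replicate 2, against 21.9 to 23.0 CPM in the others, and this library alone overlapped the untreated range of 29.5 to 33.8 CPM.

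EARS2 differed between the compounds, with a log2 value of −0.22 for AKB minus pyruvate (edgeR adjusted p 0.049). This call was at the edge of the threshold and, as described above, was lost in most fits with a single library left out. In the authors' deposited table the adjusted p of EARS2 was 0.453.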

How the results depend on the processing

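All 6 calls with AKB and all 4 with pyruvate were also made with limma-voom, DESeq2's Wald test, DESeq2's size factors, library size alone, no filter, a minimum mean of 1 CPM, the GC offset, and without both pyruvate replicates 3 and 4. Counts moved more. With AKB, the 8 libraries alone and the fit without both pyruvate replicates 3 and 4 each gave 16 calls (14 cytosolic, 2 mitochondrial), and the GC offset 13 (11 and 2). The share of all genes called lower with AKB rose as well. It was 0.603% in the fit of 12 libraries, 4.31% without both pyruvate replicates and 3.82% with the GC offset. DESeq2's size factors and its Wald test added 1 mitochondrial call. With pyruvate, the 8 libraries alone gave 1 call (1 cytosolic), the GC offset 18 (10 cytosolic lower, 4 mitochondrial lower, 4 higher) and the Wald test 15 (10, 2 and 3). A mean of at least 1 CPM gave 7, with 1 mitochondrial lower and 1 higher, library size alone 1 mitochondrial lower, and DESeq2's size factors 1 higher. Between AKB and pyruvate, calls numbered 9 with the GC offset, 6 with the Wald test and 0 with library size alone, no filter, voom or 8 libraries. For the GC offset and the fit without both pyruvate replicates 3 and 4, the Results give the shares of all genes. They are not given for the other alternatives, including those below with 1 library left out or a replicate block. Those counts of members have no background and cannot be read as a result about the synthetases.

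Leaving out 1 library gave 4 to 7 calls with AKB (4 to 7 cytosolic, 0 to 1 mitochondrial), 3 to 18 with pyruvate (3 to 12 cytosolic lower, 0 to 3 mitochondrial lower, 0 to 6 higher), and 0 to 7 between the compounds.

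The labels do not state whether replicate numbers pair the libraries. Between groups, same-numbered libraries had correlations of −0.0996 to 0.202 over 12 pairs, and other pairs had −0.244 to 0.185 over 36 pairs. These correlations cannot decide the question, since libraries of a shared culture need not correlate in this way. With the replicate block pyruvate had 7 calls (7 cytosolic) and AKB 4, losing GARS1 and TARS1. The replicate block with the GC offset gave 13 (11 and 2), 15 (10, 2 and 3 higher) and 10 calls. AIMP1 in AKB against pyruvate had a log2 estimate of 0.05, but −0.16 with the GC offset and −0.16 with the block and offset; the cause was not tested.

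The smallest change called in the fit of 12 libraries was 1.17-fold, for EARS2; the effect of depth on the calls was not tested. Of 37 genes with a row, 21 have an exon that overlaps another annotated gene, as SARS2 does with AC011455.2 over 46.2% of its exonic bases.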
